A study of Mus musculus with 3 samples.

Results

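The cells described here are basal keratinocytes of mouse back skin that carried transcripts of at least 3 of Epgn, Nrg1, Igfbp3, Tslp and Ptgs2. They were chosen by their own transcript counts. A cell was kept with at least 500 genes, under 15% mitochondrial transcripts, Krt5 plus Krt14 at 0.5% or more of its unique transcript counts (UMIs), Krt1 plus Krt10 under 0.5%, and no UMI of the leukocyte gene Ptprc. A cell of this basal gate was a member when at least 3 of the 5 markers Epgn, Nrg1, Igfbp3, Tslp and Ptgs2 had a UMI and fewer than 3 of a second list, Fbxo32, Ndufa4l2, Smoc2, Tnfrsf19 and Wnt4, had one. In all, 1095 of 24884 kept cells met the rule, which is 4.4% of the kept cells and 8.92% of the 12281 cells in the basal gate. Of these, 505 came from the 2-week knockout, 264 from the 3-week knockout and 326 from the control. They are called Epgn-Nrg1 cells below, after 2 of the markers, although the share of them with a UMI of Nrg1 was 56.6% in the 2-week knockout, 56.1% in the 3-week knockout and 65.3% in control.

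Transcripts were counted from the 3′ end in single cells (10x Genomics 3′ v3.1) of back skin from C57BL/6 mice, with 1 library per group. The 2-week knockout carried K5-Cre-er/Piezo1fl/fl/Tdfl/+ and was taken at P62, the 3-week knockout carried K5-Cre-er/Piezo1fl/fl/Tdfl/fl and was taken at P71, and the control carried K5-Cre-er/Piezo1fl/+/Tdfl/+ and was taken at P62. All 3 groups carried the Cre driver of keratin 5-expressing epithelium and at least 1 floxed Piezo1 allele, and all were given tamoxifen from P48 to P52. The 3-week knockout was therefore older than the control and also differed in its Td alleles, so knockout, age and Td genotype cannot be told apart in it. The number of mice behind each library is not given in the labels. With 1 library per group no difference below has a replicate check, no test was made, and every 95% interval covers counting error only.

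Epigen, the product of Epgn, is a ligand of the epidermal growth factor (EGF) receptor, and neuregulin 1, the product of Nrg1, is a ligand of the related receptors ErbB3 and ErbB4. Basal keratinocytes depend on EGF receptor signalling for growth and for movement into wounds, and they also release alarm signals: thymic stromal lymphopoietin (Tslp) acts on dendritic cells and sensory neurons, and Ptgs2 (cyclooxygenase 2) makes the precursor of prostaglandins. Igfbp3 binds insulin-like growth factors outside the cell. PIEZO1 is a calcium-permeable channel opened by membrane stretch, and the series compares skin with and without an epithelial deletion of its gene.

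The libraries held 97960352 UMIs in 11144 cells for the 2-week knockout, 118610125 UMIs in 11186 cells for the 3-week knockout and 62967542 UMIs in 5621 cells for the control. Cells kept by the filters numbered 9869 in the 2-week knockout, 9993 in the 3-week knockout and 5022 in control, with medians of 7594, 8952 and 10116.5 UMIs for the 2-week knockout, the 3-week knockout and the control. Between 17 and 29 cell barcodes were shared by each pair of libraries, and none was an Epgn-Nrg1 cell in both. Epgn-Nrg1 cells were deeper than the average kept cell, with a median of 11387 UMIs in the 2-week knockout, 11627 in the 3-week knockout and 14842 in control. Single cells ran over 1442 to 29327 UMIs in the 2-week knockout, 1555 to 40948 in the 3-week knockout and 2360 to 40019 in control. Scrublet called 45 of them doublets in the 2-week knockout (8.91%), 17 in the 3-week knockout (6.44%) and 11 in control (3.37%), against 2.88%, 3.94% and 2.19% of all kept cells of the 2-week knockout, the 3-week knockout and the control. They were kept.

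All 5 markers were found in every library, and Epgn had the widest gap between libraries. These levels chose the cells and are given as a description. Epgn (mouse chromosome 5, 91027464 to 91035215, plus strand, GRCm38) was at 906 CPM (95% interval 882 to 931) in the 2-week knockout, 1358 CPM (1318 to 1399) in the 3-week knockout and 1990.4 CPM (1952 to 2029.7) in control, where CPM is the count per 1000000 UMIs, summed over the Epgn-Nrg1 cells of a library. The control was highest, the 2-week knockout lowest, and the intervals did not overlap. The share of cells with a UMI of Epgn was 90.5% in the 2-week knockout, 92.4% in the 3-week knockout and 94.2% in control. Nrg1 (chromosome 8, 31814551 to 32884029, minus strand) was at 204 CPM (95% interval 193 to 216) in the 2-week knockout, 195 CPM (179.98 to 211) in the 3-week knockout and 243 CPM (229.7 to 257) in control. Both knockouts lay below control, and their own intervals overlapped.

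Igfbp3 (chromosome 11, 7206086 to 7213923, minus strand) had 1212 CPM (95% interval 1184 to 1240.5) in the 2-week knockout, 899 CPM (867 to 932) in the 3-week knockout and 1235 CPM (1204 to 1266) in control, so only the 3-week knockout lay apart. Ptgs2 (chromosome 1, 150100031 to 150108227, plus strand) had 837 CPM (95% interval 814 to 860.4) in the 2-week knockout, 745 CPM (715 to 775) in the 3-week knockout and 1202 CPM (1172 to 1233) in control, with both knockouts below control. Tslp had 257 CPM (95% interval 244 to 270.3) in the 2-week knockout, 243 CPM (227 to 261) in the 3-week knockout and 348 CPM (331.6 to 364) in control. It was the most uneven of the 5: its share of cells with a UMI was 48.1% in the 2-week knockout, 52.3% in the 3-week knockout and 47.5% in control, and a single cell held 8.62% of its UMIs in the 2-week knockout, 24.2% in the 3-week knockout and 17.0% in control. The combination of Epgn, Igfbp3 and Ptgs2 without the other 2 was the most common in the knockouts, with 104 cells at 2 weeks and 44 at 3 weeks, and occurred in 43 control cells. All 5 markers were found in 67 cells of the 2-week knockout, 25 of the 3-week knockout and 62 of the control.

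**Figure D1:**
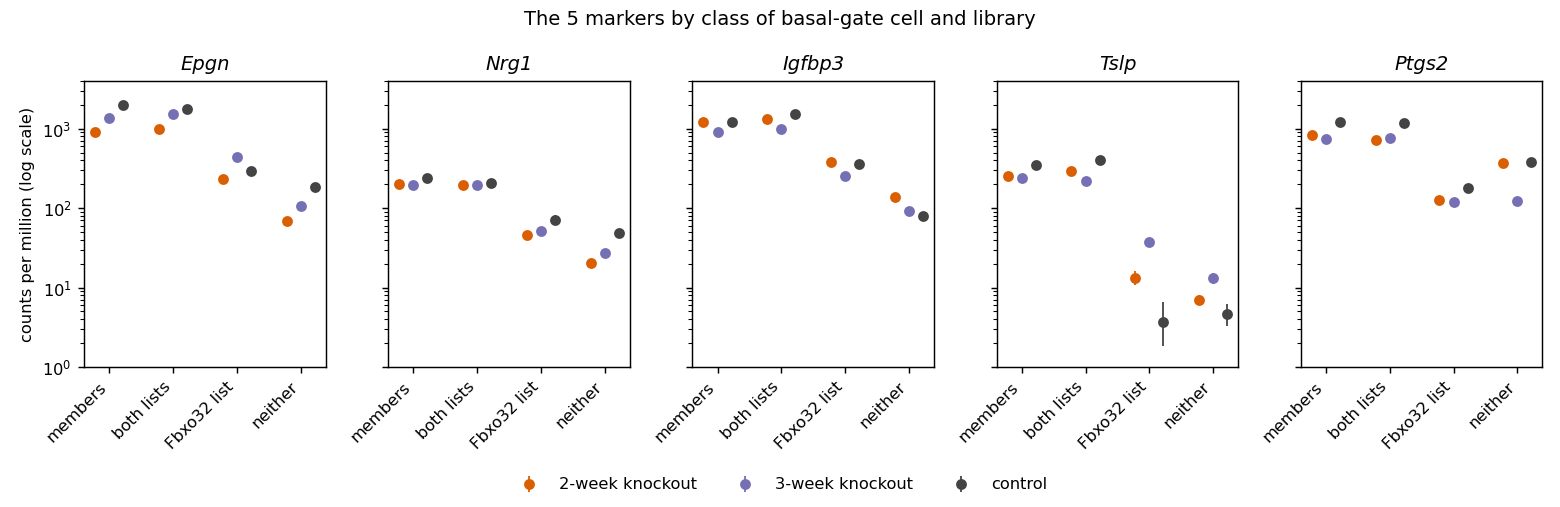
Level of each of the 5 markers (vertical axis, CPM on a log scale) in 4 classes of basal-gate cells: members are the Epgn-Nrg1 cells, and the other classes have 3 or more genes of both lists, of the Fbxo32 list alone or of neither list. Points are libraries and bars are exact Poisson 95% intervals. Epgn of members lies at 906 CPM in the 2-week knockout, 1358 CPM in the 3-week knockout and 1990.4 CPM in control, and Epgn of Fbxo32-list cells at 234, 447 and 291 CPM in the same libraries.

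Cells just outside the thresholds differed from those just inside by degree. Basal-gate cells with exactly 3 markers were set beside those with exactly 2, both with fewer than 3 genes of the Fbxo32 list. With 3 markers, Epgn was at 568 CPM in the 2-week knockout, 926 CPM in the 3-week knockout and 1384 CPM in control. With 2 markers, Epgn was at 204 CPM in the 2-week knockout, 355 CPM in the 3-week knockout and 525 CPM in control. Epgn is itself a counted marker, so its step partly follows from the rule. Serpinb2, a gene the rule did not name, showed a step in the same direction in the same cells. With 3 markers it was at 3948 CPM in the 2-week knockout, 3230 CPM in the 3-week knockout and 6569.98 CPM in control. With 2 markers it was at 1141 CPM in the 2-week knockout, 1264 CPM in the 3-week knockout and 2669 CPM in control. On the side of the second list the step was small. Cells with 2 genes of the Fbxo32 list, the last to be members, held F3 at 457 CPM in the 2-week knockout, 253 CPM in the 3-week knockout and 962 CPM in control. Cells with 3 genes, the first to be left out, held it at 321 CPM in the 2-week knockout, 198 CPM in the 3-week knockout and 705 CPM in control. Of the members, 345 in the 2-week knockout, 204 in the 3-week knockout and 205 in control carried exactly 2 genes of that list.

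By the gate and by their markers the cells were basal keratinocytes. The 9 basal keratinocyte markers (Krt5, Krt14, Krt15, Itga6, Itgb4, Col17a1, Trp63, Dst and Lamb3) were each above 50 CPM in all 3 libraries and summed to 21182 CPM in the 2-week knockout, 23432 CPM in the 3-week knockout and 21221 CPM in control. The 8 suprabasal markers summed to 1306 CPM in the 2-week knockout, 1624 CPM in the 3-week knockout and 799.8 CPM in control, against 39336 CPM in the 2-week knockout, 43282 CPM in the 3-week knockout and 34940.3 CPM in control of the cells with Krt1 and Krt10. The gate itself used Krt5, Krt14, Krt1 and Krt10, so these basal and suprabasal sums partly follow from the rule. Krt14 was at 8716 CPM and Krt5 at 5457 CPM in the 2-week knockout. The cells with Krt1 and Krt10 were likewise chosen by 2 genes of the suprabasal list. The 9 bulge stem cell markers summed to 778 CPM in the 2-week knockout, 492 CPM in the 3-week knockout and 577 CPM in control, against 3579 CPM in the 2-week knockout, 1944 CPM in the 3-week knockout and 2254 CPM in control of the basal-gate cells with neither list. The 5 cycling markers summed to 269 CPM in the 2-week knockout, 157 CPM in the 3-week knockout and 319 CPM in control. The 5 blood endothelial markers summed to at most 10.5 CPM in a library, the 5 T cell markers to at most 2.69 CPM, the 5 macrophage or Langerhans cell markers to at most 32.9 CPM, the 4 melanocyte markers to at most 4.31 CPM, and the 4 Merkel cell markers to at most 1.23 CPM with Krt20 and Atoh1 at 0. Upper hair follicle markers, which include the wound keratin Krt17, summed to 1802 CPM in the 2-week knockout, 2311 CPM in the 3-week knockout and 2544 CPM in control. Sebaceous, dermal papilla, pericyte and Schwann cell lists summed to at most 85.3, 61.6, 43.4 and 73.9 CPM. Fibroblast genes were not at 0. The 7 fibroblast markers summed to 160.3 CPM in the 2-week knockout, 156 CPM in the 3-week knockout and 608 CPM in control, and 5 or more UMIs of Col1a1, Col1a2, Col3a1 and Sparc were held by 54 Epgn-Nrg1 cells of the 2-week knockout, 30 of the 3-week knockout and 64 of the control. Whether the cells are activated was not tested.

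Epgn-Nrg1 cells by this rule made up a smaller share of the basal gate in both knockouts. They were 8.98% of 5622 gate cells in the 2-week knockout (95% Clopper-Pearson interval 8.25 to 9.76), 5.65% of 4674 in the 3-week knockout (5.0 to 6.35) and 16.4% of 1985 in control (14.8 to 18.1). The share was 0.547 times that of control at 2 weeks (0.481 to 0.623) and 0.344 times at 3 weeks (0.295 to 0.401). The 3-week difference rested on the limit set by the Fbxo32 list, an alternative tried after the data were seen. Counting every basal-gate cell with at least 3 of the 5 markers gave 28.8% in the 2-week knockout (27.7 to 30.0), 42.4% in the 3-week knockout (41.0 to 43.8) and 44.6% in control (42.4 to 46.8), so that the ratios to control were 0.647 (0.607 to 0.689) and 0.951 (0.896 to 1.01). The limit kept 31.2% of such cells in the 2-week knockout, 13.3% in the 3-week knockout and 36.8% in control.

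The 3-week knockout had the largest share of cells with both lists. Cells with 3 or more genes of each list numbered 1116 in the 2-week knockout, 1718 in the 3-week knockout and 559 in control. These were 19.9% of the gate in the 2-week knockout, 36.8% in the 3-week knockout and 28.2% in control, and they were more numerous than Epgn-Nrg1 cells in every library. Cells with 3 or more genes of the Fbxo32 list, with or without the markers, were 30.4% of the gate in the 2-week knockout, 55.5% in the 3-week knockout and 38.0% in control. Among all cells with at least 3 markers, Ndufa4l2, a hypoxia-inducible mitochondrial protein gene of that list, was at 219 CPM in the 2-week knockout, 395 CPM in the 3-week knockout and 142 CPM in control. Tnfrsf19, a tumour necrosis factor receptor family gene, was at 54.0 CPM in the 2-week knockout, 99.7 CPM in the 3-week knockout and 40.0 CPM in control. Both were highest in the 3-week knockout. Smoc2, a matrix protein gene, was at 194 CPM in the 2-week knockout, 219 CPM in the 3-week knockout and 191 CPM in control.

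The shares also depended on depth. Median depth in the gate was 8512.5 UMIs in the 2-week knockout, 11119 in the 3-week knockout and 12519 in control. After every gate cell was thinned to 5000 UMIs, Epgn-Nrg1 cells were 15.7% of the gate in the 2-week knockout (14.7 to 16.8), 17.2% in the 3-week knockout (16.1 to 18.4) and 28.2% in control (26.2 to 30.3), ratios to control of 0.558 at 2 weeks and 0.611 at 3 weeks. Shallower cells, left out, numbered 671 in the 2-week knockout, 483 in the 3-week knockout and 110 in control. Thinning lets more cells stay under 3 genes of the Fbxo32 list, so these shares are higher than the unthinned ones. Cells with at least 3 markers, whatever the other list, were 24.0% in the 2-week knockout (22.8 to 25.2), 33.3% in the 3-week knockout (31.9 to 34.7) and 36.1% in control (33.9 to 38.3) after thinning. By this count the ratio to control was 0.665 at 2 weeks (0.615 to 0.719) and 0.923 at 3 weeks (0.857 to 0.994). Among Ptprc-positive cells, which give the level of free RNA, at least 3 of the markers were held by 1 of 150 in the 2-week knockout (0.667%), 1 of 535 in the 3-week knockout (0.187%) and 3 of 387 in control (0.775%). Their median depths were 4233.5, 4642 and 6099 UMIs in the 2-week knockout, the 3-week knockout and the control. A smaller share of members does not separate fewer such cells from less of the marker RNA per cell.

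**Figure D2:**
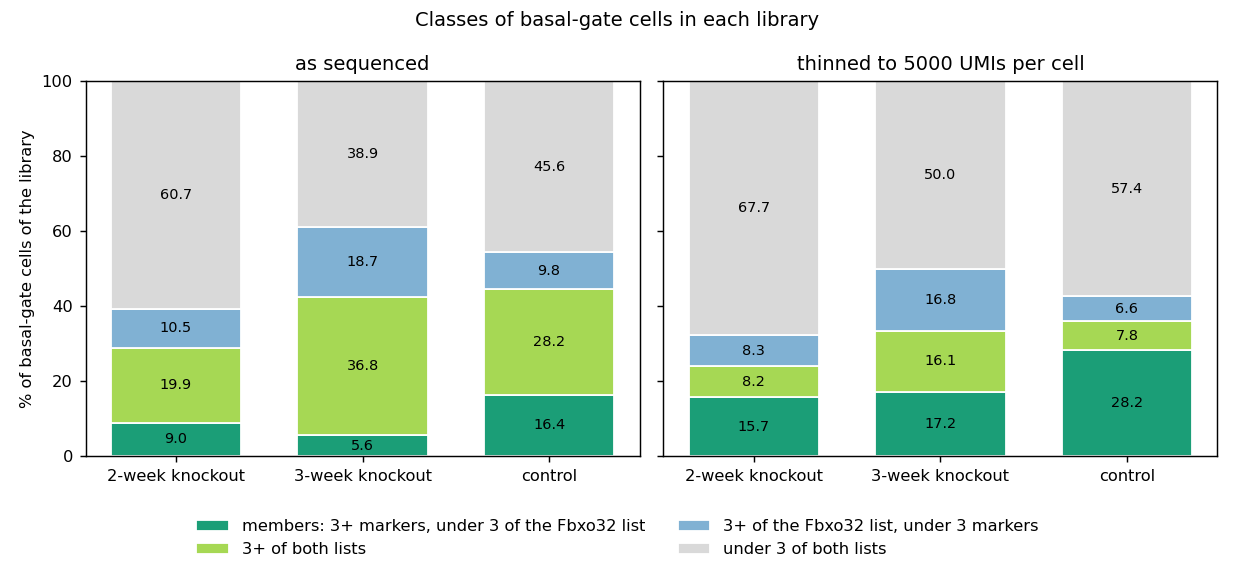
Share of basal-gate cells (vertical axis, percent) in 4 classes for each library, as sequenced on the left and with every cell thinned to 5000 UMIs on the right. Members, the Epgn-Nrg1 cells, are 8.98% in the 2-week knockout, 5.65% in the 3-week knockout and 16.4% in control as sequenced, and 15.7%, 17.2% and 28.2% of the same libraries after thinning. Cells with 3 or more of both lists have their largest share in the 3-week knockout in both panels.

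Against basal-gate cells that carried the Fbxo32 list and fewer than 3 markers (591 in the 2-week knockout, 876 in the 3-week knockout and 195 in control, called Fbxo32-list cells), Epgn-Nrg1 cells held more Serpinb2, F3, Cldn4 and Areg and less Id1, Id2 and Hes1. Of 2602 genes with enough counts to compare, 150 were higher by 1.5-fold or more in all 3 libraries (5.76%) and 54 lower (2.08%). Both classes were chosen from the same counts, so these values are descriptions, given in each library for Epgn-Nrg1 cells against Fbxo32-list cells. Serpinb2, the plasminogen activator inhibitor 2 gene, led with 4954 CPM against 1123 CPM in the 2-week knockout, 3892 CPM against 1105 CPM in the 3-week knockout and 8369.6 CPM against 2183 CPM in control. F3, the gene of tissue factor, which starts clotting, had 417 CPM against 115 CPM in the 2-week knockout, 256 CPM against 40.7 CPM in the 3-week knockout and 990.2 CPM against 154 CPM in control. Cldn4, a tight junction claudin, had 201 CPM against 56.6 CPM in the 2-week knockout, 173 CPM against 47.7 CPM in the 3-week knockout and 308 CPM against 80.7 CPM in control. The smallest ratio among these 3 genes was 3.52-fold, for Serpinb2.

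Ligands, adhesion and matrix genes were among the same 15 leading genes. Areg, the gene of the EGF receptor ligand amphiregulin, had 153 CPM against 52.7 CPM in the 2-week knockout, 145 CPM against 50.8 CPM in the 3-week knockout and 210.4 CPM against 70.6 CPM in control. Itgb6, the integrin chain that pairs with alpha v and frees transforming growth factor beta, had 116 CPM against 30.9 CPM in the 2-week knockout, 97.3 CPM against 30.6 CPM in the 3-week knockout and 238 CPM against 62.3 CPM in control. Thbs1, the matrix protein thrombospondin 1, had 1573 CPM against 589 CPM in the 2-week knockout, 1938 CPM against 798 CPM in the 3-week knockout and 4046 CPM against 1306 CPM in control. For these 3 genes the lowest ratio in any library was 2.43-fold, for Thbs1. Krt16, a keratin induced in wounds, had 660.1 CPM against 274 CPM in the 2-week knockout, 813 CPM against 208 CPM in the 3-week knockout and 829 CPM against 310.3 CPM in control. Ifi202b, an interferon-inducible gene, had 2019.9 CPM against 479 CPM in the 2-week knockout, 1416 CPM against 424 CPM in the 3-week knockout and 4197 CPM against 1307 CPM in control. Slc6a14, an amino acid transporter, Rap2b, a small GTPase, Adm, the vasodilator adrenomedullin, Abca12, a lipid transporter of lamellar granules, Pde4b, a cyclic AMP phosphodiesterase, Tmcc3 and Trim16 completed them, at log2 ratios (5 CPM added to each level) of 1.24 to 2.27.

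The 15 leading lower genes of Epgn-Nrg1 cells included Id1 and Id2, inhibitors of basic helix-loop-helix factors. Id1 had 209 CPM against 472 CPM in the 2-week knockout, 124 CPM against 289.8 CPM in the 3-week knockout and 69.1 CPM against 230.3 CPM in control. Id2 had 119 CPM against 224 CPM in the 2-week knockout, 55.1 CPM against 117 CPM in the 3-week knockout and 56.1 CPM against 173 CPM in control, and Hes1, a Notch target, had 80.2 CPM against 165 CPM in the 2-week knockout, 62.2 CPM against 156 CPM in the 3-week knockout and 24.8 CPM against 63.3 CPM in control. All 3 were at least 1.88-fold lower in each library. Cenpf, a kinetochore gene, had 44.6 CPM against 131 CPM in the 2-week knockout, 29.9 CPM against 128 CPM in the 3-week knockout and 45.97 CPM against 133 CPM in control. Txnip, an inhibitor of thioredoxin, had 43.3 CPM against 163 CPM in the 2-week knockout, 77.6 CPM against 173 CPM in the 3-week knockout and 23.8 CPM against 177 CPM in control. Its gap in control was the widest among the 15. Socs3, Klf2, Irf1, Arrdc3, Arl4c, Abi3bp, Phlda3, Ptn, Cenpa and Cdc20 were the other lower genes. Cenpf, Cenpa and Cdc20 act in mitosis, but of the cell cycle list 0 of 5 compared genes were 1.5-fold apart in all 3 libraries, and its median log2 ratio to Fbxo32-list cells was -0.29 in the 2-week knockout, -0.37 in the 3-week knockout and 0.10 in control.

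**Figure D3:**
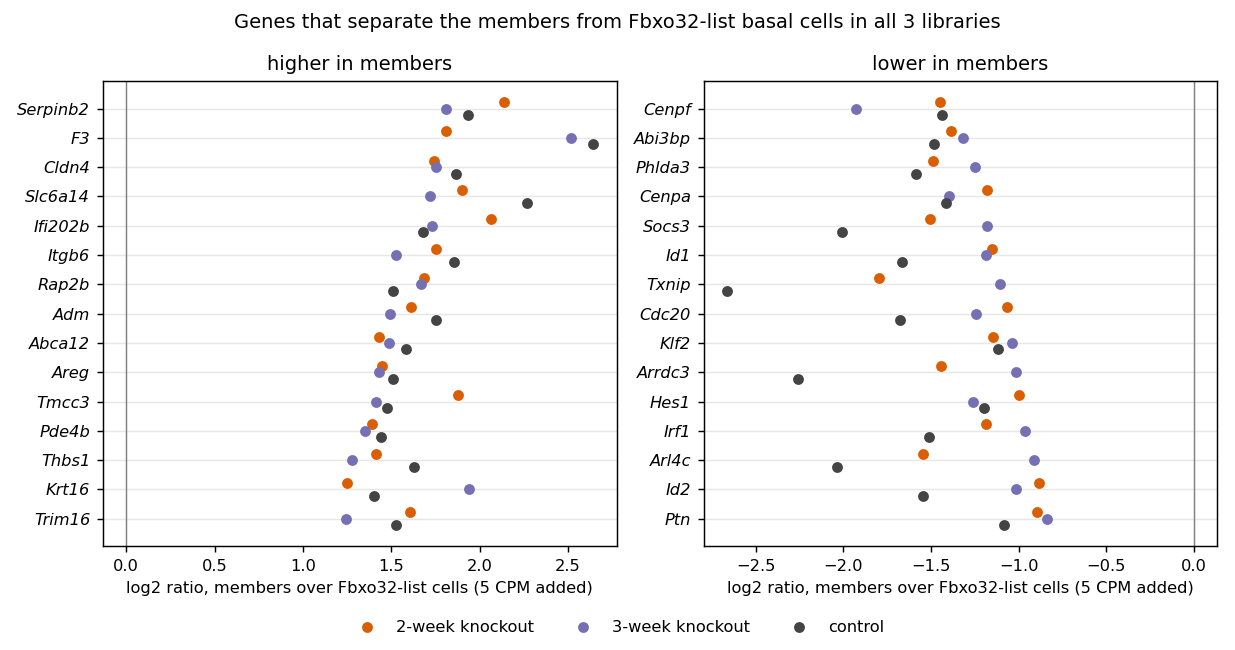
Log2 ratio of CPM (horizontal axis, 5 CPM added to both sides) in Epgn-Nrg1 cells (members) over Fbxo32-list cells, for the 15 leading genes on each side; 1 point per library. Points of the higher genes lie between 1.24 and 2.64 and points of the lower genes between -2.66 and -0.84.

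Cells with both lists lay mostly between the other classes and nearer to Epgn-Nrg1 cells. On the 15 higher genes their level was between the other classes for 15 of 15 genes in each library, and nearer to that of Epgn-Nrg1 cells for 15 genes in the 2-week knockout, 14 in the 3-week knockout and 15 in control. On a scale from Fbxo32-list cells at 0% to Epgn-Nrg1 cells at 100%, their median position was 76.4% in the 2-week knockout, 70.4% in the 3-week knockout and 80.8% in control. On the 15 lower genes they lay between for 11 genes in the 2-week knockout, 10 in the 3-week knockout and 11 in control. The 5 markers and 5 list genes took no part in this count. The 15 genes of each side were still picked as the most different between Epgn-Nrg1 cells and Fbxo32-list cells. Cells with both lists also met the same marker threshold as Epgn-Nrg1 cells. A position between the classes and nearer to Epgn-Nrg1 cells was thus favoured in advance, and the counts are a description only.

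The promoters of the leading genes are shown because several shared the same short element. Of the 15 higher genes, 12 had a promoter in the RefSeq table (GRCm38.p6, 250 bases before to 50 after each start), and 5 of the 12 (Cldn4, F3, Serpinb2, Slc6a14 and Tmcc3) held TGANTCA, the binding element of AP-1 (Fos and Jun family) factors, which reads the same on both strands. By promoter, 6 of the 22 promoters of these 12 genes held it. None of the 12 matched genes among the 15 lower ones, with 15 promoters, held it, nor did Epgn, Igfbp3 or Ptgs2. Over all mouse genes of that table, 7.82% had a promoter with it (6.75% of 32851 promoters). The cyclic AMP response element TGACGTCA was found for Areg alone of the 12, against 1.77% of all genes, and the TEAD element GGAATG, read on both strands, for Ifi202b alone, against 14.4%. The 250 bases up to the start of 3 of these genes and of Epgn, 5′ to 3′ on the strand of the gene, are printed with TGANTCA in capitals. Serpinb2 is at chr1:107511173-107511422, plus strand, F3 at chr3:121723287-121723536, plus strand, Cldn4 at chr5:134946935-134947184, minus strand and Epgn at chr5:91027267-91027516, plus strand.
Serpinb2: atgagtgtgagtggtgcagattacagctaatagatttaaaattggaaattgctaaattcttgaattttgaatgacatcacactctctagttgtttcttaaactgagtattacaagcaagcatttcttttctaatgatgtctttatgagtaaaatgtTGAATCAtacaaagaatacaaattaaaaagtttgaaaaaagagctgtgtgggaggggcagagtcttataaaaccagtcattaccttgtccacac
F3: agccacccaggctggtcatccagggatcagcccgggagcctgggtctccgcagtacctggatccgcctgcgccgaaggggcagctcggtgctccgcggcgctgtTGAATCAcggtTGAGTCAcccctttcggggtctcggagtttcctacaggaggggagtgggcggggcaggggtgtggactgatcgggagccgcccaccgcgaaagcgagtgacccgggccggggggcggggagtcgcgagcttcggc
Cldn4: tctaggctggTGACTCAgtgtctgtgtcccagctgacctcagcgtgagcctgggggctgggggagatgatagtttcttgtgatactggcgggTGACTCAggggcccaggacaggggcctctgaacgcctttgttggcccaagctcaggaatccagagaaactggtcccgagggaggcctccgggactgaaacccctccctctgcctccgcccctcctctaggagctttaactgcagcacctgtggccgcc
Epgn: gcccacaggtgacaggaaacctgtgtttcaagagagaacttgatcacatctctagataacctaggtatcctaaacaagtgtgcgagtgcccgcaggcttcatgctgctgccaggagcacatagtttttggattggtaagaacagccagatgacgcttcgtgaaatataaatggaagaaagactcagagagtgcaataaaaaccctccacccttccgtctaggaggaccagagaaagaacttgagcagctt
The element lay 94 to 88 bases before the start in Serpinb2, 146 to 140 and 135 to 129 bases before it in F3, and 240 to 234 and 158 to 152 bases before it in Cldn4. A match of letters is not a bound site, and these genes were picked by their levels.

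Set against the basal-gate cells with fewer than 3 genes of both lists (3410 in the 2-week knockout, 1816 in the 3-week knockout and 905 in control), Epgn-Nrg1 cells held less Lhx2, Cd34 and Krt24, genes known from hair follicle stem cells. Of 2560 genes compared, 210 were higher by 1.5-fold or more in all 3 libraries (8.2%) and 184 lower (7.19%). Lhx2, a transcription factor of follicle stem cells, had 25.8 CPM against 234 CPM in the 2-week knockout, 18.8 CPM against 159 CPM in the 3-week knockout and 9.71 CPM against 106 CPM in control. Cd34, a surface marker of the bulge, had 41.5 CPM against 312 CPM in the 2-week knockout, 13.2 CPM against 132 CPM in the 3-week knockout and 27.9 CPM against 177 CPM in control, and Krt24, a bulge keratin, had 28.03 CPM against 250.03 CPM in the 2-week knockout, 9.85 CPM against 136 CPM in the 3-week knockout and 19.4 CPM against 148 CPM in control. The smallest gap among these 3 genes was 6.34-fold, for Cd34. Ccn2, a target of the YAP coactivator, had 40.3 CPM against 323 CPM in the 2-week knockout, 15.7 CPM against 161 CPM in the 3-week knockout and 18.4 CPM against 184 CPM in control. Grem1, Sema3e, Fzd2, Angptl7, Calml3, Alcam, S100a4, Defb6, Rflnb, Id1 and Id2 were the other leading lower genes.

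On the higher side, the 15 leading genes included Il33, Il1r2 and Tnfaip3. Il33, an alarmin of epithelial nuclei, had 278 CPM against 26.5 CPM in the 2-week knockout, 166 CPM against 42.7 CPM in the 3-week knockout and 263 CPM against 61.2 CPM in control. Il1r2, the decoy receptor of interleukin 1, had 61.4 CPM against 5.83 CPM in the 2-week knockout, 87.4 CPM against 14.1 CPM in the 3-week knockout and 76.9 CPM against 7.27 CPM in control. Tnfaip3, a brake on NF-kB signalling, had 346 CPM against 71.3 CPM in the 2-week knockout, 509 CPM against 116 CPM in the 3-week knockout and 599 CPM against 84.8 CPM in control. Wnt3, a Wnt ligand, had 71.8 CPM against 9.69 CPM in the 2-week knockout, 84.4 CPM against 18.7 CPM in the 3-week knockout and 56.5 CPM against 10.97 CPM in control. Serpinb2, F3, Ifi202b, Pde4b and Rap2b led here too, with Chit1, Sox6, Trim47, Sema3d, Phldb2 and Smox. By list, 1 of 7 compared NF-kB genes (Tnfaip3) was 1.5-fold higher in all 3 libraries and 0 were lower, and of 5 alarmin, cytokine and chemokine genes 3 were higher (Il33, Cxcl16 and Ccl20) and 1 lower (Ccl2). The cells compared with were shallower, with medians of 7066.5 UMIs in the 2-week knockout, 7139.5 in the 3-week knockout and 9442 in control, and the part of depth in these values was not tested.

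Pathway lists, written with earlier results of these data known, were counted against the other basal cells in the same way. Counts give genes at least 1.5-fold apart in all 3 libraries, leaving out the genes of the rule. Against Fbxo32-list cells, where 5.76% of all compared genes were higher and 2.08% lower, 3 of 4 compared alarmin, cytokine and chemokine genes were higher (Il33, Cxcl16 and Ccl20), 3 of 5 genes of plasminogen, tissue factor and matrix proteases (Serpinb2, F3 and Thbs1), 4 of 6 p53 target genes (Cdkn1a, Mdm2, Sesn2 and Gadd45a), 4 of 11 actin genes (Actb, Actg1, Tpm1 and Zyx) and 2 of 7 integrins (Itga2 and Itgb6). Of the same p53 targets Phlda3 was lower. Itga2, the collagen-binding integrin alpha 2, had 186 CPM against 68.9 CPM in the 2-week knockout, 95.7 CPM against 42.1 CPM in the 3-week knockout and 445 CPM against 149.98 CPM in control. Gadd45a, a stress gene, had 147 CPM against 57.8 CPM in the 2-week knockout, 155 CPM against 69.9 CPM in the 3-week knockout and 380.4 CPM against 84.4 CPM in control. Of 19 immediate early genes 1 was higher (Fosl1) and 3 lower (Fos, Socs3 and Irf1). Against the cells with neither list, where 7.19% of all compared genes were lower, 8 of the 19 were lower: Fos, Fosb, Egr1, Ier3, Myc, Klf4, Socs3 and Btg2. Heat shock chaperones (0 of 10) and nuclear genes of oxidative phosphorylation (0 of 13) had no member 1.5-fold apart from Fbxo32-list cells in all 3 libraries.

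Within Epgn-Nrg1 cells, both knockouts were compared with the same control library, so the 2 comparisons share it and are given side by side only. At 2 weeks 2784 genes had at least 50 UMIs over both libraries and 50 CPM in one of them. By 2-fold or more, 16 of these were higher (0.575%) and 22 lower (0.79%). At 3 weeks 28 of 2789 passed 2-fold on the higher side (1%) and 76 on the lower (2.72%). The median log2 ratio over all compared genes was -0.06 at 2 weeks and -0.15 at 3 weeks. With that median set to no difference the counts were 19 higher and 15 lower at 2 weeks and 42 higher and 49 lower at 3 weeks. Ribosomal protein genes were 5 of the 16 higher genes at 2 weeks, 4 of the 28 higher and 5 of the 76 lower genes at 3 weeks, and they are not named below. Ribosomal transcripts were 24.7% of the UMIs of Epgn-Nrg1 cells in the 2-week knockout, 26.3% in the 3-week knockout and 20.3% in control. At least 2-fold in every one of 16 settings of the rule and of the values were Hes1, Fos, Ch25h, Ccdc71l, Thbs1, Gadd45a, F3, Itga2 and Phlda1 at 2 weeks, and Eno1, Plp2, Fos, Reep5, Socs3, Wdr89, Ifi27l2a, Itga2, F3, Ccdc71l and Bst2 at 3 weeks. The other genes named for a comparison were under 2-fold in at least 1 setting of that comparison. Atp5k, Gadd45a and Phlda1, named at 2 weeks only, were at least 2-fold from control at 3 weeks in every setting.

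At 2 weeks the Epgn-Nrg1 cells held more Id1, Hes1 and Fos and less Ch25h, Cald1 and Thbs1, among others. Id1 was at 209 CPM in the 2-week knockout, 124 CPM in the 3-week knockout and 69.1 CPM in control, 3.03-fold higher (95% interval 2.69 to 3.42) at 2 weeks. Hes1 was at 80.2 CPM in the 2-week knockout, 62.2 CPM in the 3-week knockout and 24.8 CPM in control, 3.24-fold higher (95% interval 2.66 to 3.98) at 2 weeks. Fos, a subunit of AP-1, was at 2749.7 CPM in the 2-week knockout, 2841 CPM in the 3-week knockout and 1012 CPM in control, 2.72-fold higher (95% interval 2.63 to 2.804) at 2 weeks. Control was lowest for all 3. The log2 ratios at 2 weeks were 1.53 for Id1, 1.52 for Hes1 and 1.44 for Fos in Epgn-Nrg1 cells. They were 2.01 for Id1, 1.76 for Hes1 and 1.74 for Fos in cells with Krt5 plus Krt14 under 0.5% of UMIs (low-keratin cells, a mix of follicle, fibroblast and other cells). In keratinocytes with Krt1 plus Krt10 at 0.5% or more (Krt1/Krt10 cells) they were 1.54 for Id1, 1.62 for Hes1 and 1.20 for Fos. These 3 genes were at least 2-fold higher in Fbxo32-list cells and in the cells with both lists too. Without the cells that held 5 or more fibroblast UMIs (of Col1a1, Col1a2, Col3a1 and Sparc), Id1 was at a log2 ratio of 0.97, under 2-fold.

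Atp5k, an ATP synthase subunit, was at 212 CPM in the 2-week knockout, 195 CPM in the 3-week knockout and 85.2 CPM in control, 2.48-fold higher (95% interval 2.23 to 2.78) at 2 weeks. Gas1, a membrane protein of hedgehog signalling, was at 59.9 CPM in the 2-week knockout, 55.1 CPM in the 3-week knockout and 24.4 CPM in control, 2.46-fold higher (95% interval 1.998 to 3.04). Control was lowest for both as well. Id2 was 2.12-fold higher (95% interval 1.85 to 2.44) at 2 weeks, and under 2-fold, at a log2 ratio of 0.83, without the cells with collagen UMIs. Plp2, a membrane protein gene, was 2.205-fold higher (95% interval 1.896 to 2.57). Plp2 has a near-identical copy at its 3′ end elsewhere in the annotation, so its counts are uncertain. Gas1 was at a log2 ratio of 0.21 in low-keratin cells, 0.80 in Krt1/Krt10 cells and 0.07 in Fbxo32-list cells. In the cells with neither list it was at 1.14, against 1.14 in Epgn-Nrg1 cells. Atp5k was at 0.62 in low-keratin cells, 1.08 in Krt1/Krt10 cells, 1.02 in Fbxo32-list cells and 0.68 in the cells with neither list. Plp2 was at 1.46 in low-keratin cells, 1.11 in Krt1/Krt10 cells, 0.96 in Fbxo32-list cells and 1.19 in the cells with neither list. When all cells with 3 markers were counted, Gas1 was at a log2 ratio of 0.60, against 1.14 by the rule.

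Of the 10 lower genes named at 2 weeks, Thbs1, F3, Itga2, Gadd45a and Phlda1 were also among the genes at least 1.5-fold higher in Epgn-Nrg1 cells than in Fbxo32-list cells in all 3 libraries. Thbs1 was at 1573 CPM in the 2-week knockout, 1938 CPM in the 3-week knockout and 4046 CPM in control, 2.57-fold lower (95% interval 2.51 to 2.64) at 2 weeks. F3 was at 417 CPM in the 2-week knockout, 256 CPM in the 3-week knockout and 990.2 CPM in control, 2.38-fold lower (95% interval 2.26 to 2.49). Itga2 was at 186 CPM in the 2-week knockout, 95.7 CPM in the 3-week knockout and 445 CPM in control, 2.39-fold lower (95% interval 2.23 to 2.58). In all 3 the control was above both knockouts. Ch25h, which makes the signalling sterol 25-hydroxycholesterol, was at 15.4 CPM in the 2-week knockout, 28.9 CPM in the 3-week knockout and 78.1 CPM in control, 5.06-fold lower (95% interval 4.02 to 6.41). Phlda1, a gene switched on by growth factor signalling, was at 789.6 CPM in the 2-week knockout, 612 CPM in the 3-week knockout and 1745 CPM in control, 2.21-fold lower (95% interval 2.13 to 2.29). Gadd45a was at 147 CPM in the 2-week knockout, 155 CPM in the 3-week knockout and 380.4 CPM in control, 2.59-fold lower (95% interval 2.39 to 2.81). These 3 genes were again highest in control.

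Cald1, the actin-binding protein caldesmon, had 22.8 CPM in the 2-week knockout, 34.8 CPM in the 3-week knockout and 89.8 CPM in control. Has2, a hyaluronan synthase, had 24.3 CPM in the 2-week knockout, 27.4 CPM in the 3-week knockout and 67.6 CPM in control. Slc1a1, a glutamate transporter, had 40.95 CPM in the 2-week knockout, 54.8 CPM in the 3-week knockout and 99.1 CPM in control. All 3 were highest in control. At 2 weeks Cald1 was 3.93-fold lower, Has2 2.78-fold lower and Slc1a1 2.42-fold lower, but Has2 and Slc1a1 were under 2-fold, at log2 ratios of -0.89 and -0.90, when all cells with 3 markers were counted. Ccdc71l, with 61.3 CPM in the 2-week knockout, 44.3 CPM in the 3-week knockout and 168 CPM in control, was 2.75-fold lower. Several of the 10 lower genes were also lower in other cells. In the cells with both lists 7 of the 10 were at least 2-fold lower (Ch25h, Cald1, Ccdc71l, Thbs1, F3, Itga2 and Phlda1). At least 2-fold lower were 5 of the 10 in Krt1/Krt10 cells (Ch25h, Ccdc71l, Thbs1, F3 and Phlda1), 3 in Fbxo32-list cells (Thbs1, Itga2 and Phlda1), 4 in the cells with neither list (Ch25h, Thbs1, Gadd45a and Phlda1) and 1 in low-keratin cells (Thbs1). For F3 the log2 ratio was -1.24 in Epgn-Nrg1 cells, -1.10 in Krt1/Krt10 cells, -0.96 in the cells with neither list, -0.40 in Fbxo32-list cells and -0.02 in low-keratin cells. For Has2 it was -1.31 in Epgn-Nrg1 cells and 0.01 in Krt1/Krt10 cells, 0.02 in the cells with neither list, -0.52 in Fbxo32-list cells and -0.11 in low-keratin cells. The differences between kinds of cell were not tested. The 10 genes were picked by their ratios in Epgn-Nrg1 cells. The share of all genes 2-fold lower in each other class is not given, so these counts are descriptions only. With the cells of 5 or more fibroblast UMIs left out, the log2 ratio was -1.39 for Cald1 and -1.52 for Ch25h, against -1.77 and -2.02 with them.

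At 3 weeks Itga2 and F3 were lower than control by larger ratios than at 2 weeks, and interferon-inducible genes and a wound keratin were among the named genes. Itga2 was 4.65-fold lower (95% interval 4.13 to 5.25) and F3 3.86-fold lower (95% interval 3.59 to 4.16) than in control, with the values given above. Ifi27l2a, an interferon-inducible gene, was at 242 CPM in the 2-week knockout, 100.05 CPM in the 3-week knockout and 476 CPM in control, 4.75-fold lower (95% interval 4.23 to 5.35) at 3 weeks. Bst2, the antiviral membrane protein tetherin, was at 26.2 CPM in the 2-week knockout, 16.3 CPM in the 3-week knockout and 63.4 CPM in control, 3.89-fold lower (95% interval 2.898 to 5.30). Plaur, the urokinase receptor, was at 62.9 CPM in the 2-week knockout, 30.2 CPM in the 3-week knockout and 99.3 CPM in control, 3.29-fold lower (95% interval 2.64 to 4.13). In these 3 the 3-week knockout was lowest and control highest. Krt6a, a wound keratin, was at 125 CPM in the 2-week knockout, 48.3 CPM in the 3-week knockout and 154 CPM in control, 3.19-fold lower (95% interval 2.68 to 3.81), and Ccdc71l was 3.799-fold lower (95% interval 3.18 to 4.57). Hist1h2ae, a histone gene of dividing cells, was 4.48-fold lower (95% interval 3.61 to 5.62), but 1 cell held 40% of its UMIs in the 3-week knockout and it was at a log2 ratio of -0.79 when all cells with 3 markers were counted.

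Most of the lower genes named at 3 weeks were lower in other cells too. Wdr89 was at 462 CPM in the 2-week knockout, 84.04 CPM in the 3-week knockout and 722 CPM in control, a log2 ratio of -3.03 in Epgn-Nrg1 cells and -2.99 in low-keratin cells. Wdr89, Ifi27l2a, Itga2, F3, Bst2, Krt6a and Plaur were at least 2-fold lower in Fbxo32-list cells and in Krt1/Krt10 cells at 3 weeks, and Wdr89, Itga2, Ifi27l2a, Hist1h2ae and Krt6a in low-keratin cells. In the cells with both lists Wdr89, Ifi27l2a, Itga2, F3, Ccdc71l, Bst2, Krt6a and Plaur were at least 2-fold lower. These genes were picked by their ratios in Epgn-Nrg1 cells, and the share of all genes 2-fold lower in each other class is not given. The part of a difference between whole libraries in these values was not tested.

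The higher genes at 3 weeks included a glycolytic enzyme and signalling genes. Eno1 (enolase 1) was at 31.4 CPM in the 2-week knockout, 70.8 CPM in the 3-week knockout and 9.51 CPM in control, 7.45-fold higher (95% interval 5.44 to 10.4) at 3 weeks, and shares its 3′ end with 5 other annotated genes, so this is uncertain. Fos, with the values above, was 2.81-fold higher (95% interval 2.71 to 2.91). Socs3, an inhibitor of cytokine signalling, was at 147 CPM in the 2-week knockout, 175 CPM in the 3-week knockout and 73.3 CPM in control, 2.39-fold higher (95% interval 2.096 to 2.74). Control was lowest for each. Txnip was at 43.3 CPM in the 2-week knockout, 77.6 CPM in the 3-week knockout and 23.8 CPM in control, 3.26-fold higher (95% interval 2.62 to 4.09). Defb1, a beta-defensin, was at 36.1 CPM in the 2-week knockout, 71.4 CPM in the 3-week knockout and 26.5 CPM in control, 2.69-fold higher (95% interval 2.17 to 3.35). Reep5, a protein that shapes the endoplasmic reticulum, was at 144 CPM in the 2-week knockout, 231 CPM in the 3-week knockout and 90.3 CPM in control, 2.55-fold higher (95% interval 2.27 to 2.87). The 3-week knockout was highest for these 3.

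Rasgef1b, a Ras family exchange factor gene, was 2.55-fold higher (95% interval 2.03 to 3.22) at 3 weeks. Plp2 was 3.02-fold higher, Sap18 2.58-fold higher and AY036118 2.41-fold higher, and all 3 have near-identical copies at their 3′ ends, so their counts are uncertain. At least 2-fold higher too were 6 of the 10 in Krt1/Krt10 cells (Eno1, Plp2, Fos, Reep5, AY036118 and Sap18), the same without AY036118 in low-keratin cells, and Eno1, Plp2 and Reep5 in Fbxo32-list cells. In the cells with both lists 7 of the 10 were (Eno1, Plp2, Fos, Reep5, AY036118, Socs3 and Sap18). Here too the share of all genes 2-fold higher in each class is not given, and the counts are descriptions only. Txnip was at a log2 ratio of 1.52 in Epgn-Nrg1 cells, 0.57 in Krt1/Krt10 cells and -0.03 in Fbxo32-list cells. When all cells with 3 markers were counted, Defb1 was at a log2 ratio of 0.69, against 1.28 by the rule.

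**Figure D4:**
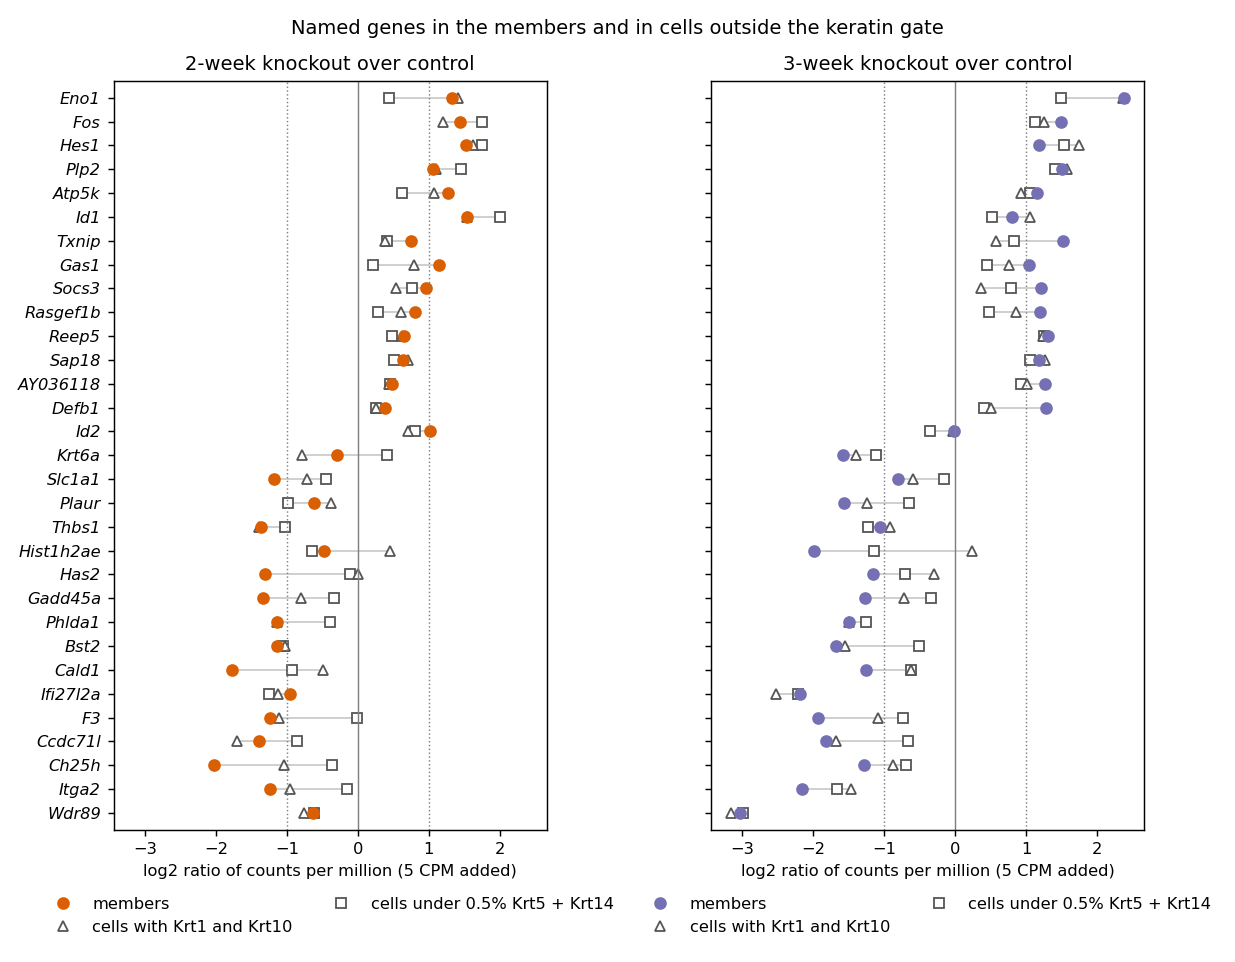
Log2 ratio of CPM (horizontal axis, 5 CPM added) of each knockout over control for the named genes, in Epgn-Nrg1 cells (members, filled), in cells with Krt1 plus Krt10 at 0.5% or more of UMIs (triangles) and in cells with Krt5 plus Krt14 under 0.5% (squares); dotted lines mark 2-fold. At 3 weeks Wdr89 has all points together, and at 2 weeks F3 is at -1.24 in members, -1.10 in cells with Krt1 and Krt10 and -0.02 in the cells of low Krt5 and Krt14.

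The lists below leave out the genes of the rule, since their levels chose the cells. Of the other ligands of the EGF receptor family, Areg was at 153 CPM in the 2-week knockout, 145 CPM in the 3-week knockout and 210.4 CPM in control. Hbegf, the gene of heparin-binding EGF, was at 588 CPM in the 2-week knockout, 608 CPM in the 3-week knockout and 698 CPM in control. Control was highest for both. Of the receptors, Egfr was at 107 CPM in the 2-week knockout, 84.97 CPM in the 3-week knockout and 153 CPM in control, and Erbb3, the receptor that binds neuregulin, was at 77.04 CPM in the 2-week knockout, 63.4 CPM in the 3-week knockout and 70.5 CPM in control. Egfr was highest in control and Erbb3 in the 2-week knockout. Among 4 genes of this list that could be compared, 0 were higher by 1.5-fold or more and 0 lower at 2 weeks, beside 2.91% and 4.31% of all genes, and at 3 weeks 0 were higher and 1 lower (Egfr), beside 4.09% and 13.3%. The median log2 ratio was -0.35 at 2 weeks and -0.36 at 3 weeks. Ereg, Tgfa, Btc, Egf, Nrg4, Erbb2 and Erbb4 were too low to compare. The same shares of all genes stand beside each list count below, whether repeated or not.

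Of 7 genes that damp EGF receptor and MAP kinase signalling, 2 were at least 1.5-fold lower at 2 weeks (Errfi1 and Phlda1) and 3 at 3 weeks (with Dusp6), and 0 were higher. Of all compared genes 4.31% were lower at 2 weeks and 13.3% at 3 weeks. Errfi1, an inhibitor that binds the EGF receptor, was at 424 CPM in the 2-week knockout, 355 CPM in the 3-week knockout and 755 CPM in control, 1.78-fold lower (95% interval 1.69 to 1.87) at 2 weeks and 2.13-fold lower (95% interval 1.99 to 2.27) at 3 weeks. Dusp6, a phosphatase of ERK, was at 131 CPM in the 2-week knockout, 103 CPM in the 3-week knockout and 182 CPM in control. Both were lowest in the 3-week knockout and highest in control. Dusp1, a phosphatase of stress kinases, was at 858 CPM in the 2-week knockout, 1009.7 CPM in the 3-week knockout and 779 CPM in control, and Spry1, a Sprouty inhibitor, at 68.99 CPM in the 2-week knockout, 90.2 CPM in the 3-week knockout and 65.98 CPM in control. Control was lowest for both.

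In Epgn-Nrg1 cells alarm signals differed in both directions at 3 weeks. Cxcl16, a chemokine of the cell surface, was at 346 CPM in the 2-week knockout, 319.5 CPM in the 3-week knockout and 575 CPM in control. Il33 was at 278 CPM in the 2-week knockout, 166 CPM in the 3-week knockout and 263 CPM in control, lowest at 3 weeks. Ccl20, a chemokine that draws CCR6-bearing cells, was at 57.2 CPM in the 2-week knockout, 165 CPM in the 3-week knockout and 92.5 CPM in control, and Ccl27a, the chemokine of skin-homing T cells, at 993 CPM in the 2-week knockout, 1542 CPM in the 3-week knockout and 841 CPM in control. Both chemokines were highest at 3 weeks. A UMI of Ccl20 was found in 9.70% of Epgn-Nrg1 cells in the 2-week knockout, 9.85% in the 3-week knockout and 10.1% in control. In the cells with both lists Ccl20 went the other way at 3 weeks, at 80.1 CPM against 182 CPM in control. There Ccl27a was at 1113 CPM at 3 weeks against 723 CPM in control. Among the 4 compared genes 0 were higher by 1.5-fold or more and 2 lower at 2 weeks (Cxcl16 and Ccl20), and 2 higher (Ccl20 and Ccl27a) and 2 lower (Cxcl16 and Il33) at 3 weeks. Il1a, Il1b, Il6, Il18, Tnf, Csf1 and 7 other genes of the list were too low to compare.

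Of the prostaglandin genes, Ptges, the synthase that makes prostaglandin E2, was at 73.3 CPM in the 2-week knockout, 81.9 CPM in the 3-week knockout and 54.7 CPM in control, and the receptor gene Ptger4 at 94.2 CPM in the 2-week knockout, 114 CPM in the 3-week knockout and 117 CPM in control. Ptges was lowest in control. In this list 0 of 5 genes passed 1.5-fold at either time. Igf1r, the receptor of insulin-like growth factor 1, was at 97.9 CPM in the 2-week knockout, 85.6 CPM in the 3-week knockout and 115 CPM in control. Of the IGF list 0 of 3 genes passed 1.5-fold at 2 weeks and 1 of 2 (Irs2, an adaptor of the insulin receptor) was lower at 3 weeks.

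Among NF-kB genes, Nfkbia, which holds NF-kB in the cytoplasm, was at 1435 CPM in the 2-week knockout, 2158 CPM in the 3-week knockout and 1421 CPM in control. Tnfaip3 was at 346 CPM in the 2-week knockout, 509 CPM in the 3-week knockout and 599 CPM in control, and Nfkb1, a subunit of the factor, at 278 CPM in the 2-week knockout, 279.8 CPM in the 3-week knockout and 471 CPM in control. Nfkbia was highest in the 3-week knockout and the other genes in control. At 2 weeks 0 of 8 were at least 1.5-fold higher and 3 lower (Nfkb1, Nfkb2 and Tnfaip3), beside 2.91% and 4.31% of all genes. At 3 weeks 1 was higher (Nfkbia) and 3 lower (Nfkb1, Nfkb2 and Relb), beside 4.09% and 13.3%. The list median was -0.22 at 2 weeks and 0.00 at 3 weeks. Among the wound keratins, Krt16 was at 660.1 CPM in the 2-week knockout, 813 CPM in the 3-week knockout and 829 CPM in control and Krt17 at 802 CPM in the 2-week knockout, 1179.98 CPM in the 3-week knockout and 1072 CPM in control, and Krt6a was the 1 gene of 3 to pass 1.5-fold, at 3 weeks.

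Several integrin chains were lower in the knockouts, with more of them past 1.5-fold at 3 weeks. Itgb1, the common beta chain, was at 423 CPM in the 2-week knockout, 264 CPM in the 3-week knockout and 587 CPM in control, 1.39-fold lower (95% interval 1.31 to 1.46) at 2 weeks and 2.23-fold lower (95% interval 2.06 to 2.41) at 3 weeks. Itgb6 was at 116 CPM in the 2-week knockout, 97.3 CPM in the 3-week knockout and 238 CPM in control, 2.05-fold lower (95% interval 1.86 to 2.25) and 2.45-fold lower (95% interval 2.16 to 2.78). Itgav, the alpha v chain, was at 96.7 CPM in the 2-week knockout, 78.2 CPM in the 3-week knockout and 147 CPM in control. The chains of the hemidesmosome integrin stood closer together: Itga6 was at 644 CPM in the 2-week knockout, 618 CPM in the 3-week knockout and 781 CPM in control and Itgb4 at 171 CPM in the 2-week knockout, 183 CPM in the 3-week knockout and 207 CPM in control. Of 7 integrins 2 were at least 1.5-fold lower at 2 weeks (Itga2 and Itgb6), beside 4.31% of all genes. At 3 weeks 4 of the 7 integrins were lower (with Itgb1 and Itgav), beside 13.3%, and 0 were higher at either time. Their median log2 ratio was -0.47 at 2 weeks and -0.87 at 3 weeks. It was -0.14 and -0.52 in low-keratin cells, -0.34 and -0.51 in Krt1/Krt10 cells and -0.18 and -0.17 in Fbxo32-list cells at 2 and 3 weeks. Lama3, a chain of a basement membrane laminin, was at 142 CPM in the 2-week knockout, 96.97 CPM in the 3-week knockout and 223 CPM in control. It was among the 2 lower genes of 7 in the hemidesmosome and laminin list at both times, but relative to the median gene 0 of the 7 were lower at 2 weeks.

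Most compared genes of the plasminogen, tissue factor and matrix protease list were lower in both knockouts. At 2 weeks 5 of 6 compared genes were at least 1.5-fold lower, beside 4.31% of all genes. At 3 weeks 4 of 5 were, beside 13.3%, and 0 were higher at either time. Serpinb2 was at 4954 CPM in the 2-week knockout, 3892 CPM in the 3-week knockout and 8369.6 CPM in control, 1.69-fold lower (95% interval 1.66 to 1.71) at 2 weeks and 2.15-fold lower (95% interval 2.11 to 2.19) at 3 weeks. Timp3, an inhibitor of matrix proteases, was at 97.2 CPM in the 2-week knockout, 120.4 CPM in the 3-week knockout and 182 CPM in control. Serpinb2 was lowest at 3 weeks and Timp3 at 2 weeks. The list median was -0.81 at 2 weeks and -1.10 at 3 weeks, and it was -0.90 and -0.73 in low-keratin cells, -0.67 and -1.02 in Krt1/Krt10 cells and -0.63 and -0.98 in Fbxo32-list cells at 2 and 3 weeks. Plaur, Serpinb2, F3 and Thbs1 of this list were also named above by their own values, so its count adds no independent evidence.

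Of 12 actin, myosin and focal adhesion genes 5 were at least 1.5-fold lower at 2 weeks, beside 4.31% of all genes, and 7 at 3 weeks, beside 13.3%, and 0 were higher. Actb (beta actin) was at 5819 CPM in the 2-week knockout, 6095 CPM in the 3-week knockout and 11056 CPM in control, 1.90-fold lower (95% interval 1.87 to 1.93) at 2 weeks and 1.81-fold lower (95% interval 1.78 to 1.84) at 3 weeks. Myh9, non-muscle myosin heavy chain, was at 356 CPM in the 2-week knockout, 316 CPM in the 3-week knockout and 633 CPM in control. Tpm1, tropomyosin 1, was at 522 CPM in the 2-week knockout, 454 CPM in the 3-week knockout and 896 CPM in control, and Zyx, the focal adhesion protein zyxin, at 78.4 CPM in the 2-week knockout, 72.96 CPM in the 3-week knockout and 153 CPM in control. Control was highest for all 4. The median log2 ratio of the list was -0.49 at 2 weeks and -0.67 at 3 weeks. Relative to the median gene 5 were lower at both times. The medians were -0.31 and -0.42 in low-keratin cells, -0.38 and -0.31 in Krt1/Krt10 cells and -0.29 and -0.33 in Fbxo32-list cells at 2 and 3 weeks.

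Among YAP target and pathway genes, Tead1, the DNA-binding partner of YAP, was at 54.6 CPM in the 2-week knockout, 43.1 CPM in the 3-week knockout and 98.9 CPM in control, Crim1 at 176 CPM in the 2-week knockout, 125 CPM in the 3-week knockout and 223 CPM in control and Ccn1 at 487 CPM in the 2-week knockout, 416 CPM in the 3-week knockout and 549 CPM in control. All 3 were highest in control, and Tead1 passed 1.5-fold at both times and Crim1, which encodes a membrane regulator of growth factors, at 3 weeks. Ccn2 and Ankrd1, the usual readouts of YAP, were too low to compare, Ankrd1 at 0 in every library. Not all low genes of the list were highest in control. Ajuba was at 20.6 CPM in the 2-week knockout, 34.5 CPM in the 3-week knockout and 10.5 CPM in control. Ccn2 was at 40.3 CPM in the 2-week knockout, 15.7 CPM in the 3-week knockout and 18.4 CPM in control. Axl was at 35.1, 32.9 and 38.4 CPM in the same libraries. Of the p53 targets, Cdkn1a was at 1376 CPM in the 2-week knockout, 1319 CPM in the 3-week knockout and 1767 CPM in control and Mdm2 at 195 CPM in the 2-week knockout, 121 CPM in the 3-week knockout and 229.6 CPM in control. Of this list 1 of 4 genes (Gadd45a) was at least 1.5-fold lower at 2 weeks, beside 4.31% of all genes. At 3 weeks 3 of 5 were (Gadd45a, Mdm2 and Sesn2), beside 13.3%.

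Interferon-inducible genes had the lowest list median, -1.01 at 2 weeks and -1.62 at 3 weeks. The list was written with earlier results of these data known, and 4 of its 12 genes could be compared. Bst2 and Ifi27l2a were also named above by their own values, so this median adds no independent evidence. Ifi202b was at 2019.9 CPM in the 2-week knockout, 1416 CPM in the 3-week knockout and 4197 CPM in control, 2.08-fold lower (95% interval 2.03 to 2.12) at 2 weeks and 2.96-fold lower (95% interval 2.87 to 3.06) at 3 weeks. Bst2, Ifi27l2a and Ifi202b were the 3 of 4 genes at least 1.5-fold lower at both times. Of all genes 4.31% were lower at 2 weeks and 13.3% at 3 weeks. Psmb8, an immunoproteasome subunit, was at 96.5 CPM in the 2-week knockout, 109.9 CPM in the 3-week knockout and 139 CPM in control. The list median was -1.16 and -1.20 in low-keratin cells, -1.08 and -1.72 in Krt1/Krt10 cells and -1.15 and -1.59 in Fbxo32-list cells at 2 and 3 weeks, so the list was lower in these cells too. Isg15, Ifit1, Irf7 and the other 5 genes of the list were too low to compare.

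Immediate early genes were mixed, with Fos, Fosb and Atf3 higher and Fosl1 and Klf6 lower. Fosb was at 2355 CPM in the 2-week knockout, 2386 CPM in the 3-week knockout and 1347 CPM in control. Atf3, a stress-induced factor, was at 2713 CPM in the 2-week knockout, 3015 CPM in the 3-week knockout and 1531 CPM in control. Both were lowest in control. Fosl1, the AP-1 subunit Fra-1, was at 835 CPM in the 2-week knockout, 743 CPM in the 3-week knockout and 1125 CPM in control, and Klf6 at 1577 CPM in the 2-week knockout, 1697 CPM in the 3-week knockout and 2375 CPM in control, both highest in control. Jun, the main partner of Fos, was at 2695 CPM in the 2-week knockout, 3698 CPM in the 3-week knockout and 2504 CPM in control. Of 19 genes 5 were higher by 1.5-fold or more and 1 lower at 2 weeks, beside 2.91% and 4.31% of all genes. At 3 weeks 7 were higher and 1 lower, beside 4.09% and 13.3%. Relative to the median gene 5 were higher at 2 weeks and 10 at 3 weeks, with 0 lower. The median of the list was 0.11 at 2 weeks and 0.44 at 3 weeks in Epgn-Nrg1 cells. It was 0.75 and 0.51 in low-keratin cells, 0.19 and 0.49 in Krt1/Krt10 cells and 0.25 and 0.36 in Fbxo32-list cells at 2 and 3 weeks.

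Some genes of energy metabolism were higher in the knockouts. Gapdh was at 373 CPM in the 2-week knockout, 514 CPM in the 3-week knockout and 265 CPM in control and Tpi1 (triose phosphate isomerase) at 85.4 CPM in the 2-week knockout, 114 CPM in the 3-week knockout and 51.3 CPM in control, and Hk2, hexokinase 2, at 146 CPM in the 2-week knockout, 111 CPM in the 3-week knockout and 73.7 CPM in control. Ndrg1, a hypoxia-inducible gene, ran the other way, at 374 CPM in the 2-week knockout, 306 CPM in the 3-week knockout and 586 CPM in control. Of the glycolysis and hypoxia list, 2 of 9 were higher by 1.5-fold or more and 1 lower at 2 weeks. At 3 weeks 4 of 10 were higher and 1 lower. Of all compared genes, 2.91% were higher and 4.31% lower at 2 weeks, and 4.09% and 13.3% at 3 weeks. Of 13 nuclear genes of oxidative phosphorylation 2 (Atp5k and Ndufa3) were higher at both times and 0 lower, at medians of 0.31 at 2 weeks and 0.43 at 3 weeks. Cell cycle genes were few: Mki67 was at 93.3 CPM in the 2-week knockout, 61.9 CPM in the 3-week knockout and 124 CPM in control and Top2a at 115 CPM in the 2-week knockout, 59.7 CPM in the 3-week knockout and 134 CPM in control, both lowest at 3 weeks. Of that list 0 of 5 genes passed 1.5-fold at 2 weeks, and 1 was higher (Ccnd1) and 2 lower (Mki67 and Top2a) at 3 weeks. The cell cycle median at 3 weeks was -0.34 in Epgn-Nrg1 cells, -0.14 in Krt1/Krt10 cells and -0.24 in low-keratin cells. It was -0.02 in the cells with both lists, 0.39 in Fbxo32-list cells and 0.30 in the cells with neither list. In the cells with both lists the 5 cycling markers summed to 385 CPM in the 2-week knockout, 488 CPM in the 3-week knockout and 456 CPM in control. Trp63, the factor that defines basal keratinocytes, was at 181 CPM in the 2-week knockout, 192 CPM in the 3-week knockout and 259.9 CPM in control. Of 9 basal transcription factors 2 (Id1 and Id3) were higher at 2 weeks, and 1 (Id1) was higher and 2 (Tfap2a and Klf5) lower at 3 weeks. Heat shock chaperones had 0 of 10 past 1.5-fold at both times, and of 4 cholesterol and oxysterol genes Ch25h alone was lower at both times.

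The 3-week counts shift when taken relative to the median gene. On that scale 104 of all compared genes were higher by 1.5-fold or more (3.74%) and 98 lower (3.52%) at 2 weeks, and 212 were higher (7.60%) and 211 lower (7.57%) at 3 weeks. At 3 weeks 6 of 13 oxidative phosphorylation genes and 6 of 10 glycolysis and hypoxia genes were then higher, with 2 of 10 heat shock chaperones and 2 of 9 basal transcription factors. Lower counts at 3 weeks came to 1 for NF-kB genes (Nfkb1, from 3), 1 for alarmins and chemokines (Cxcl16, from 2), 0 for basal transcription factors (from 2), 1 for calcium genes (Atp2b1, from 2), 0 for the IGF list (from 1), 0 for immediate early genes (from 1) and 5 for actin genes (from 7), and 1 prostaglandin gene was higher. At 2 weeks the lower counts came to 0 for hemidesmosome and laminin genes (from 2), 4 for plasminogen and protease genes (from 5), and 0 for immediate early genes and for glycolysis (from 1 each). The lower counts of the other lists had the same size on both scales.

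**Figure D5:**
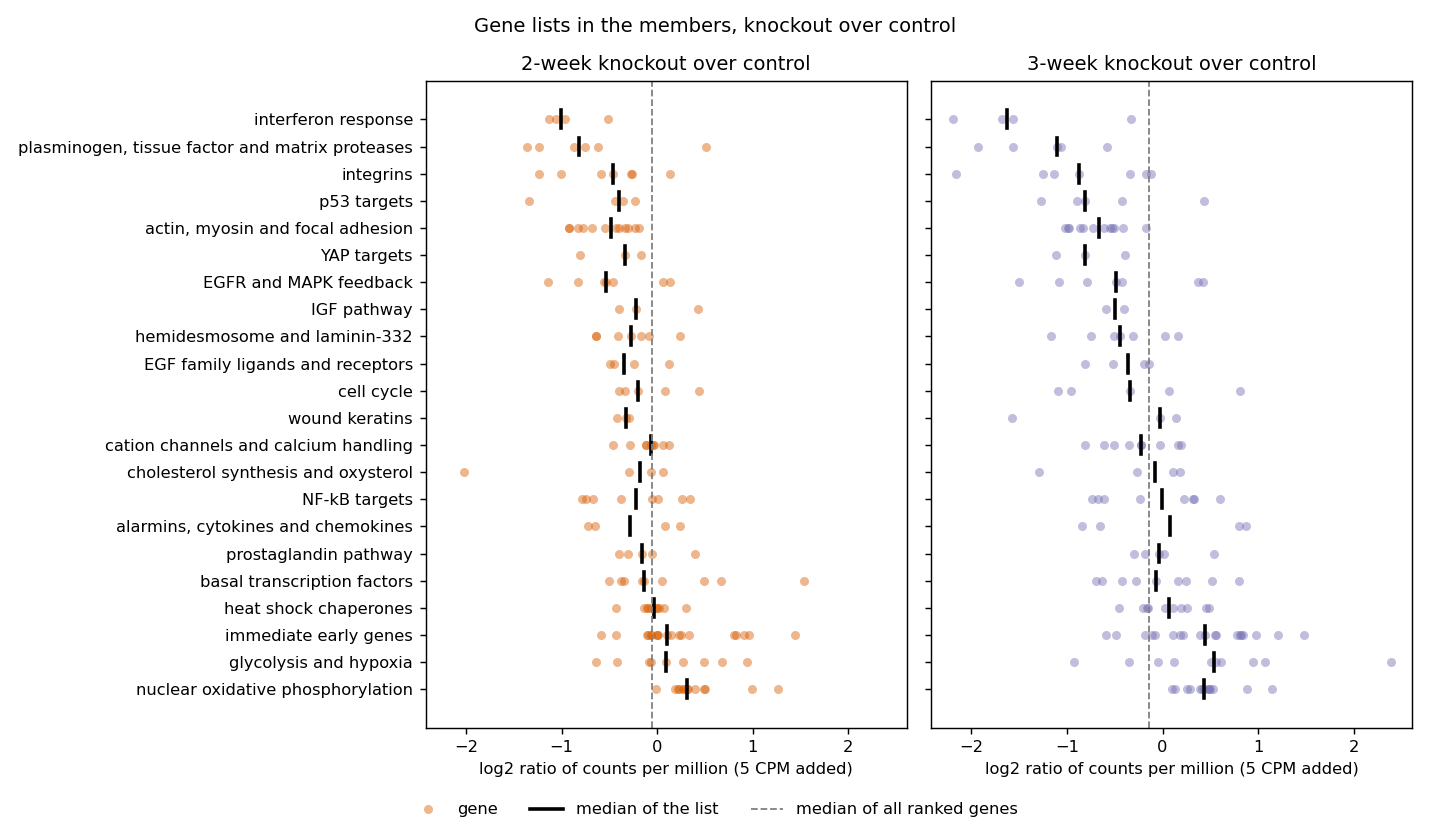
Log2 ratio of CPM (horizontal axis, 5 CPM added) of each knockout over control in Epgn-Nrg1 cells (members), for the compared genes of each list other than genes of the rule (points) with the median of the list (black bars) and of all compared genes (dashed lines, -0.06 at 2 weeks and -0.15 at 3 weeks). Interferon-inducible genes have the lowest medians, -1.01 and -1.62, and nuclear oxidative phosphorylation genes have medians of 0.31 and 0.43.

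Piezo1 (chromosome 8, 122481698 to 122551329, minus strand) was low in Epgn-Nrg1 cells of every library. It was at 28.9 CPM (95% interval 24.7 to 33.5) in the 2-week knockout, 17.2 CPM (13.02 to 22.4) in the 3-week knockout and 44.98 CPM (39.3 to 51.2) in control, and the share of cells with a UMI was 24.95% in the 2-week knockout, 16.3% in the 3-week knockout and 42.6% in control. Both knockouts lay below control, and transcripts remained in both. The log2 ratio was -0.56 at 2 weeks and -1.17 at 3 weeks in Epgn-Nrg1 cells, and -0.40 at 2 weeks and -0.74 at 3 weeks in low-keratin cells. The counts come from 3′ ends and the labels do not say which exons are floxed, so they do not check the deletion. Other calcium genes differed less. Atp2b1, a calcium pump of the plasma membrane, was at 199.9 CPM in the 2-week knockout, 156 CPM in the 3-week knockout and 276 CPM in control, and Stim1, the calcium sensor of the endoplasmic reticulum, at 151 CPM in the 2-week knockout, 140.1 CPM in the 3-week knockout and 165 CPM in control. Of 9 compared genes of the list 0 passed 1.5-fold at 2 weeks and 2 (Atp2b1 and Stim2) were lower at 3 weeks, beside 13.3% of all genes, and 1 of the 9 relative to the median gene.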

How the data were processed

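Single-cell count tables were deposited for 3 libraries of mouse back skin, 1 per group. The values are the authors' deposited UMI counts per gene and cell in filtered matrices, made with Cell Ranger 6.1.2 against mm10, per the submitters' processing notes; for the annotation release and intron setting, no source used here states either. Members and gene lists were chosen with earlier results of these data known. Doublets were called with Scrublet in scanpy 1.11.5 and kept. Counts were summed over the Epgn-Nrg1 cells of a library and scaled by their total to counts per 1000000 UMIs, CPM. To be compared, a gene needed 50 UMIs over both libraries, a level of 50 CPM in either, and a level no lower than that of the other pools of cells divided by 5. Folds are ratios of CPM, and log2 ratios have 5 CPM added to each side, which understates low genes. Intervals are exact: Poisson for levels, Clopper-Pearson for shares, conditional binomial for ratios, at 95%. They cover counting error only, and no test was made.

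Named genes are, per comparison, up to 10 on each side with the largest log2 ratio at 2-fold or more, leaving out ribosomal protein, mitochondrial, haemoglobin and sex check genes, gene models and genes of the rule. Against other basal cells they are the 15 per side with the largest ratio in the least different library. Genes of 22 pathway lists and of the marker lists, and Piezo1, may also be named. Some genes that these rules select are not reported here. Promoters come from RefSeq and gene positions from GENCODE M21. Genes were searched for near-identical copies of their last 300 bases (95% identity over 90% of the length). Alternatives changed the rule, the depth, the offset, the scaling and the filter on low genes. Scripts were tested on simulated data. Python 3.11.15, numpy 2.4.6, scipy 1.17.1 and pandas 2.3.3 were used.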

Additional observations from a re-analysis of the deposited data

How the results depend on the processing

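No paired analysis was possible because each group is 1 library. The share of Epgn-Nrg1 cells in the basal gate, as a ratio to control, was 0.547 at 2 weeks and 0.344 at 3 weeks, and stayed under 1 in all 17 alternatives, at 0.491 to 0.766 and 0.280 to 0.951. At 2 weeks it was 0.736 with at least 2 markers, 0.730, 0.744 and 0.766 without Tslp, Nrg1 or Epgn as a marker, 0.641 with Itga2, Itgb6, Serpinb2, Thbs1 and F3 in place of the markers, 0.647 with no limit on the Fbxo32 list and 0.665 when those cells were thinned. At 3 weeks it was 0.444 and 0.280 with at least 2 or 4 markers, 0.435, 0.424, 0.415 and 0.441 without Ptgs2, Tslp, Igfbp3 or Nrg1, 0.611 and 0.665 thinned to 5000 or 3000 UMIs, and 0.951 with no limit on the Fbxo32 list, or 0.923 thinned. The alternatives with no limit were chosen after seeing the data.

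At 2 weeks the 16 genes higher by 2-fold were 40 with at least 2 markers, 48 with the other 5 genes as markers, and 29 when 20 UMIs and 20 CPM were enough. The 22 lower genes were 10 with 20 CPM added and 36 with that looser filter. At 3 weeks the 28 higher genes were 18 with 20 CPM added, and the 76 lower genes were 49 when scaled by the median ratio and 116 with the looser filter. Of 1088 values of single genes under alternatives, 781 lay within the counting interval of the reported value, 307 outside it, and 0 of the genes past 2-fold changed sign. With 1 library per group, mouse and library cannot be told apart from the knockout at either time, nor age and Td alleles at 3 weeks.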
